A study of Mus musculus with 386 samples.

Results

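Oocytes collected on postnatal day 2.5 (P2.5) were ordered by their level of Kit mRNA, and the 79 libraries with the highest Kit (the Kit-high group) were compared with the 79 with the lowest (the Kit-low group). The P2.5 libraries between them form a lower middle group of 79 and an upper middle group of 80, and the whole series holds 386 libraries. Kit is given in CPM, counts scaled to a total of 1000000 gene counts per library, with the ERCC spike-in RNAs left out of the total. The measured Kit level chose the members, and every Kit value below is a description of that choice. The series holds single female mouse germ cells at embryonic day 17.5 (E17.5, 22 libraries), P2.5 and P6.5 (47 libraries), picked by hand from enzymatically dissociated ovaries and made into full-length Smart-seq2 libraries from polyadenylated RNA. The labels give the stage, and no strain, genotype, treatment or animal that would tell these cells apart. Without a named animal each stage counts as 1 sample, so no test between groups of cells was possible and no p-value is given.

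KIT is the receptor tyrosine kinase on the surface of germ cells that binds KIT ligand, which in the ovary is made by granulosa cells. In oocytes of primordial follicles, ligand binding acts through PI3K and AKT to move the transcription factor FOXO3 out of the nucleus, a step known for starting follicle growth. Ovaries of the newborn mouse hold oocytes that are being enclosed in primordial follicles, with a first group already entering growth. mRNA level and receptor activity are different quantities, and only mRNA was measured here.

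Kit mRNA spanned a 14.9-fold range among the P2.5 cells, without a gap between the groups. In the Kit-low group a cell's Kit level ran from 191.8 to 1050 CPM, with a median of 836. The lower middle group had a median of 1249 CPM and the upper middle group a median of 1611. In the Kit-high group the lowest cell had 1806 CPM, the median was 2007 and the highest reached 2849. The groups were thus sections of a continuous spread. Neighbours across a border hardly differed, with 1050.01 against 1050.07 CPM at the lower border and 1795.96 against 1806.41 at the upper. The Kit-high median was 2.40 times the Kit-low median. Measured by the deposited FPKM values, which divide by transcript length, the medians were 384 and 167.8, a 2.29-fold difference. Across stages, the median Kit level was 169.7 CPM at E17.5 (range 12.6 to 3611), 1416 at P2.5 and 1082 at P6.5 (620 to 1668). Every P2.5 cell had Kit reads, up to 56804 counts.

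**Figure D1:**
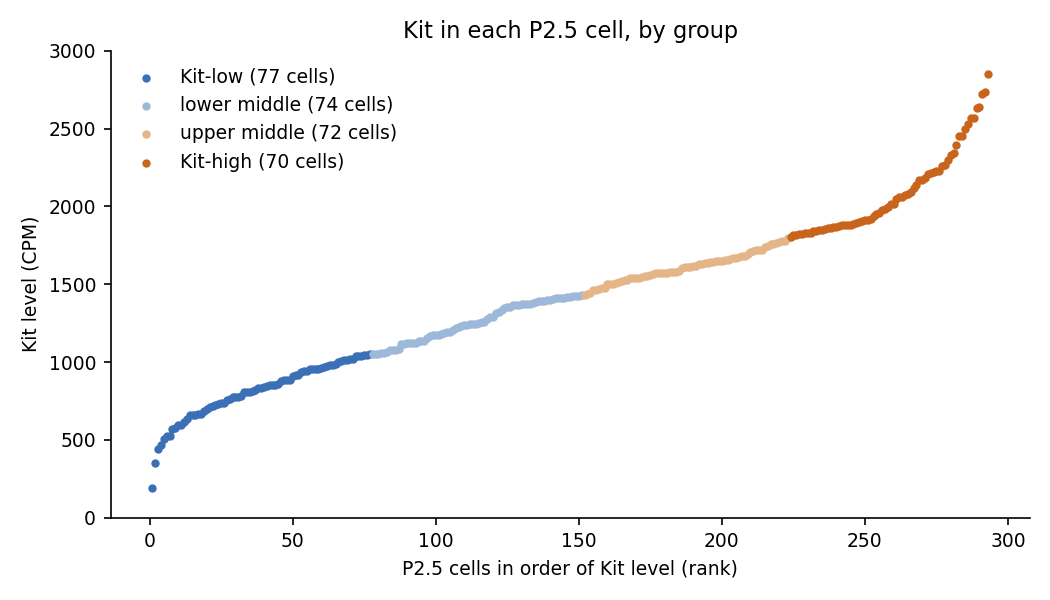
Kit level of each P2.5 cell in CPM, with cells ranked from low to high and coloured by group. The curve has no step at the borders of the groups, and the lowest cell stands at 191.8 CPM and the highest at 2849.

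Among the P2.5 libraries, 24 pairs had gene counts that differed by little more than sampling noise. A chi-square with 1 degree of freedom was taken per gene, and its median over genes was 0.686 to 1.03 in these pairs. Sampling noise alone would give a lower median. Other pairs drawn at random had 34.5, and a pair had to lie below 1.5. Each of the 24 pairs was counted as 1 cell, which leaves 77 cells in the Kit-low group, 74 and 72 in the middle groups and 70 in the Kit-high group. Median depth was 6.86e+06 counts in the Kit-high and 5.02e+06 in the Kit-low group, within 435560 to 26897828 over all P2.5 cells. Markers of other ovarian cell types were seen in a larger share of the Kit-low cells. After each cell was thinned to 100000 counts, 24 of 77 Kit-low cells (31.2%, exact 95% interval 21.1 to 42.7) and 3 of 70 Kit-high cells (4.29%, 0.893 to 12.02) held at least 10 counts from a list of such markers. These intervals cover the counting of cells in these libraries only, and are no test between conditions. In the Kit-low group these were red blood cell genes in 15 cells, stromal genes in 8, endothelial genes in 4 and granulosa cell genes in 3. No P2.5 cell reached that level for immune, mast cell or melanocyte genes, and mast cells and melanocytes also use Kit.

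One library stands apart. P2.5 replicate 66 had the lowest Kit of all, 191.8 CPM, and its 16 granulosa cell markers summed to 3072 CPM, where the next highest cell of the Kit-low group had 388. Its germ cell markers were the lowest of that group. Ddx4, a germ cell RNA helicase, was at 65.5 CPM there against a Kit-low median of 223.2, and Dazl, a germ cell translation factor, was at 192.6 against 637. Results that rest on this library are given with and without it.

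The gene body of Kit lies on chromosome 5 (GRCm38, positions 75574916 to 75656722, plus strand, by GENCODE). The RefSeq start used for the Kit promoter lies inside that span, downstream of its first base. Promoters are shown for Kit, for Pelp1 and Ap2a1, whose levels followed Kit closely over P2.5 cells, and for Pfdn6 and Cox5b, which ran opposite to it, so that they can be read side by side. Each is the 250 bases before the RefSeq start, printed 5′ to 3′ on the gene's strand. Capitals mark the GC box GGGCGG, a binding core of SP1-type factors, or the E-box CANNTG, the core of bHLH factors, on either strand.
Kit, chr5:75574737-75574986, plus strand: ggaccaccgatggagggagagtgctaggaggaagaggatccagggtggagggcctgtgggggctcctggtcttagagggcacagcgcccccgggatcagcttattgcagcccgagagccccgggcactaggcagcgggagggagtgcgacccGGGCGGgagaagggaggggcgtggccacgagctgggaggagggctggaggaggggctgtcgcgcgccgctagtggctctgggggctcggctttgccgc
Pelp1, chr11:70410032-70410281, minus strand: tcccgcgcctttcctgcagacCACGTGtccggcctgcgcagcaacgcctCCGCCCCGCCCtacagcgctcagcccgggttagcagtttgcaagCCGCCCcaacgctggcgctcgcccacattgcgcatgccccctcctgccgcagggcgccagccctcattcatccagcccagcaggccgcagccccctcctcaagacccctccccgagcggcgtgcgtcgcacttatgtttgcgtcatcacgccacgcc
Ap2a1, chr7:44929491-44929740, minus strand: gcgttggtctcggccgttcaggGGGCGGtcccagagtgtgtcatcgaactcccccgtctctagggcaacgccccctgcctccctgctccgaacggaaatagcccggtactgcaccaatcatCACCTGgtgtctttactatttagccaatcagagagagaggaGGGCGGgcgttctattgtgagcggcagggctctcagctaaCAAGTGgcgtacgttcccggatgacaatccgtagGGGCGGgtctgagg
Pfdn6, chr17:33940344-33940593, minus strand: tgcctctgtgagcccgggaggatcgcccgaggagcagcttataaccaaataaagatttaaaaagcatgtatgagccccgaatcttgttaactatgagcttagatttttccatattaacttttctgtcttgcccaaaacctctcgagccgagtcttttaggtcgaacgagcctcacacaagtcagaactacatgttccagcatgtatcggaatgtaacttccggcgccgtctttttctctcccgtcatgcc
Cox5b, chr1:36691237-36691486, plus strand: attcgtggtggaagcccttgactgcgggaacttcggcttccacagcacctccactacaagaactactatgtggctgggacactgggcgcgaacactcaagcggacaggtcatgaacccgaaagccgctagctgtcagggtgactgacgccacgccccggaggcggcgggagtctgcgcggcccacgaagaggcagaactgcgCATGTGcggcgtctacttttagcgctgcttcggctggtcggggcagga
Kit has 1 GC box and no E-box in this window, Pelp1 has 3 and 1, Ap2a1 has 3 and 2, Pfdn6 has neither and Cox5b has 1 E-box. GGGCGG was found in 32.9% of all 27025 RefSeq promoters of this length and in 61.4% of those of measured genes. Among the genes higher in the Kit-high group 64.6% held it, and among the lower genes 55.8%. CANNTG was in 56.7% of the higher and 56.9% of the lower genes, beside 56.3% of the promoters of measured genes and 66.04% of all promoters. The median GC content of the window was 61.6% for the higher and 58.4% for the lower genes. A match is a stretch of letters and no evidence of binding.

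The oocytes with high Kit differed from those with low Kit in 22.7% of the genes measured, by at least 1.5-fold in the summed counts of the groups. Of 10981 genes, 1241 (11.3%) were at least 1.5-fold higher in the Kit-high group and 1254 (11.4%) at least 1.5-fold lower. A gene was measured if it reached 5 CPM in either sum and had a count in at least 20 cells. A gene with less than 5 CPM in either of the sums was measured through the other alone, and could be called in that direction only. Folds are ratios of the sums as printed, while calls and log2 ratios have 0.5 CPM added to both sums unless stated. Only 324 genes (2.95%) were 2-fold higher and 2.40% were 2-fold lower. Genes higher in the Kit-high group included Adad2, Lin28a, Ap2a1, Dnmt1 and Uhrf1, and genes lower included Dppa3, Gtsf1, Sub1, Cox5b and the mitochondrial mt-Cytb. CPM values are shares of a total, so the balance of directions depends on the scaling. The higher genes were 49.7% of those called with CPM, 74.1% with TMM factors, 78.6% with median-of-ratios factors and 75.2% per ERCC count, as these scalings moved the median of all genes up by 0.16, 0.20 and 0.17 on the log2 scale.

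The 2 middle groups played no part in choosing the extremes, although the same Kit ranking placed their cells. Between them only 63 genes (0.574%) were 1.5-fold higher in the upper than in the lower middle group and 1.48% were lower, 2.06% in either direction. Of the 1241 genes higher at the extremes, 1009 (81.3%) were also higher by any amount in the upper middle group, where 44.9% of all measured genes were. Of the 1254 lower genes, 1073 (85.6%) were also lower, beside 55.1% of all. At P6.5 the 11 libraries with the highest Kit (1248 to 1668 CPM) were set against the 11 with the lowest (620 to 980). There, 653 of 1200 measured higher genes (54.4%) moved the same way, beside 52.7% of all genes, and 464 of 876 lower genes (52.97%), beside 47.3%. At P6.5, 1005 of 10222 genes (9.83%) passed 1.5-fold in either direction.

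Transcript length moved with Kit, as did GC content. Kit itself has a transcript of 5241 bases. Genes higher in the Kit-high group had a median transcript of 4137 bases and lower genes of 1908, against 3055 for all measured genes. In the shortest 20% of genes 2.78% were higher and 25.1% lower, and in the longest 20%, 17.5% were higher and 5.38% lower. By GC content of the transcript, 3.42% were higher and 13.7% lower in the lowest 20% of genes. In the highest 20%, 21.1% were higher and 9.49% lower. The mean transcript length of a cell's counts was taken as a geometric mean, with the longest annotated transcript of each gene, protein-coding ones first. It had a median of 2388 bases in the Kit-low group, 2515 and 2563 in the middle groups and 2596 in the Kit-high group. Its rank correlation with Kit over P2.5 cells was 0.67. The same correlation was 0.40 for GC content. These correlations describe cells that share library chemistry and depth and carry no test. Among the 30 most counted spike-ins, the ratio of long to short ones had medians of 1.70, 1.75, 1.44 and 1.49 from the Kit-low to the Kit-high group. These spike-ins span a 3.54-fold range of length, less than the genes do, with class medians of 1142 to 6770 bases.

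When the cells were first sorted into 5 classes of equal size by the mean transcript length of their counts and the groups taken within each class, a choice made after seeing the data, the median Kit levels were still 1906 and 1003 CPM, with 77 libraries each, and the median lengths 2534 and 2530 bases. Then 200 genes were higher and 421 lower, and 12.7% of the higher and 22.9% of the lower genes above were still called. Within the classes, all 12 of the genes with the highest ratios were still higher, 10 of them by 1.5-fold, and 11 of the 12 with the lowest were still lower. These genes were picked as extremes of the same P2.5 cells by the same Kit values, so their direction here is a description and no separate support. Ratios within length classes are given as log2 values.

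**Figure D2:**
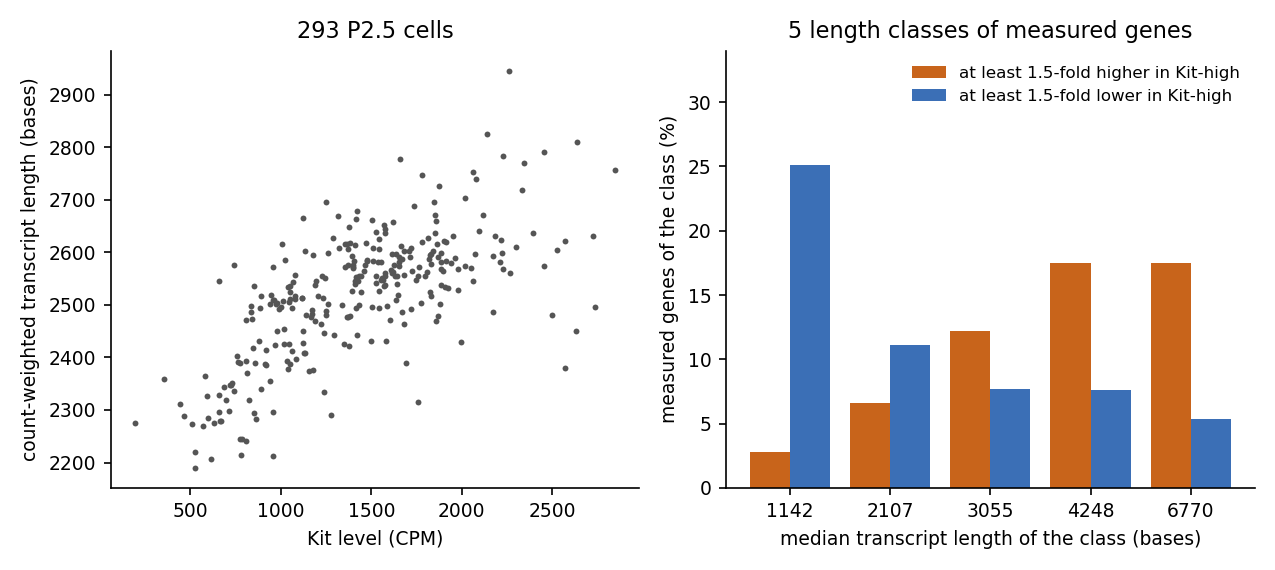
Left, the geometric mean transcript length of each P2.5 cell's counts in bases against its Kit level in CPM. Right, the share of measured genes at least 1.5-fold higher or lower in the Kit-high group, in 5 classes of genes by transcript length. Cells with more Kit have longer counted transcripts, and the share of lower genes is 25.1% in the shortest class and 5.38% in the longest.

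The 12 genes with the highest ratios, among those of at least 20 CPM in the higher sum with counts in most of its cells, were 3.05-fold to 5.335-fold higher. Adad2, a germ cell protein related to RNA-editing deaminases, ran from 0.618 to 354 CPM in Kit-high cells with a median of 83.2, and from 0.608 to 118.6 in Kit-low cells with a median of 18.3. Its sums were 106.9 and 26.1 CPM, a 4.09-fold difference (log2 2.03 with nothing added, interval for read counting alone 2.00 to 2.06). The ranges of the groups overlapped for Adad2, but 94.3% of Kit-high cells lay above the Kit-low median. Within length classes its log2 ratio was 0.96.

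Lin28a, an RNA-binding protein known for blocking let-7 microRNAs, had a low of 3.50, a median of 52.4 and a high of 151.2 CPM in the Kit-high group. The Kit-low group ran from 0.197 over a median of 16.2 to 80.6, and the sums of 64.6 and 20.3 CPM differed 3.19-fold. Lin28a thus overlapped between groups, with 92.9% of Kit-high cells above the Kit-low median, and within length classes its log2 ratio was 0.79. At P6.5 its sums were 45.3 CPM in the higher and 30.8 in the lower Kit cells.

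Ap2a1 and Epn1 both encode parts of the clathrin coat machinery that takes up receptors from the cell surface. Ap2a1, a subunit of the AP-2 adaptor, ran from 16.04 to 226.5 CPM in Kit-high cells (median 81.3) and from 1.88 to 99.6 in Kit-low cells (median 12.8), and its sums differed 3.52-fold. Epn1, epsin 1, had medians of 43.9 and 9.56 CPM and sums that differed 3.05-fold, 49.3 against 16.2. The log2 ratio of Ap2a1 was 0.53 within length classes, below the 1.5-fold mark.

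Among the other genes of highest ratio, Kpna7, the importin of oocytes and early embryos, had sums of 29.9 and 7.58 CPM, and the collagen gene Col9a3 had 122.9 and 38.1. Elobl had sums of 59.8 and 11.2 CPM, the highest ratio of the 12. It ran from 0 to 296.6 CPM in Kit-high cells and from 0 to 67.8 in Kit-low cells, with medians of 19.21 and 4.58. When cells were ranked by Kit per ERCC count, the log2 ratio of Elobl went from 2.36 to -0.014. Ldha, the A subunit of lactate dehydrogenase, had sums of 55.5 and 17.98 CPM, but between the middle groups it went the other way, with a log2 ratio of -0.35. Plekhg3, Rab11fip5, Ndst1 and Slc12a9 completed the 12, with sums of 25.9 to 35.3 CPM in the Kit-high and 6.86 to 9.42 in the Kit-low group.

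**Figure D3:**
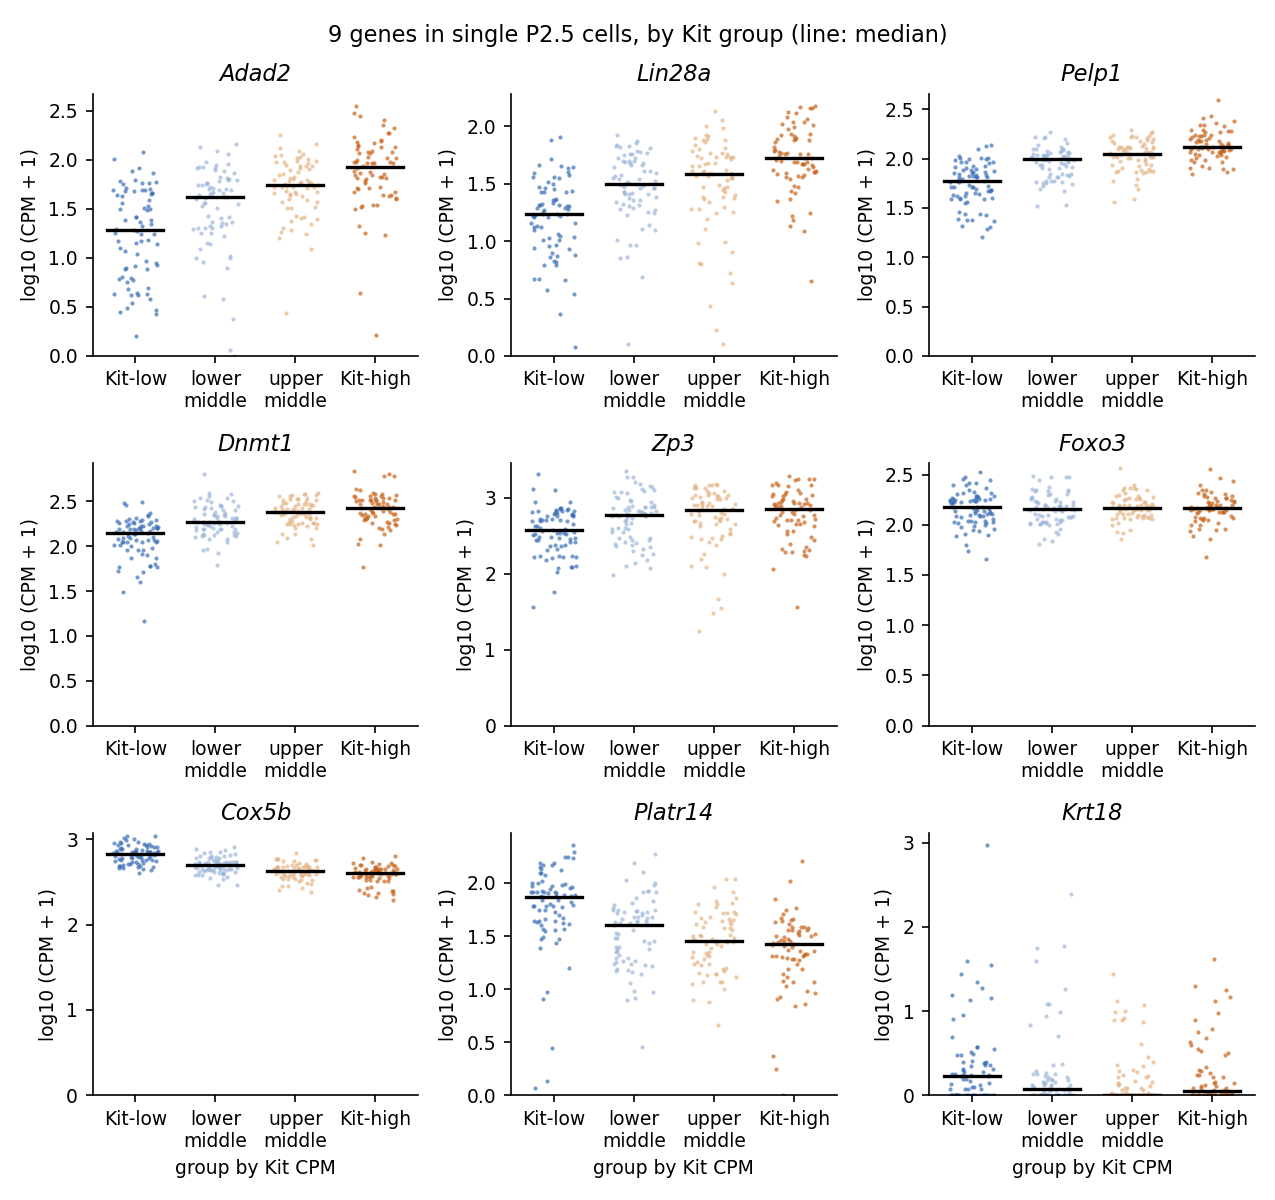
Level of 9 genes in every P2.5 cell, as log10 of CPM with 1 added, by Kit group, where points are cells and lines are medians. The medians of Adad2 and Lin28a are higher from group to group, those of Cox5b and Platr14 lower, and those of Foxo3 between 143.05 and 147.8 CPM.

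Among mRNAs of proteins that bind active KIT or signal next to it, more were called higher than lower in cells with high Kit. Of 27 genes listed, 23 were measured, 6 were at least 1.5-fold higher (beside 11.3% of all genes) and 0 lower, with a median log2 ratio of 0.28 beside -0.05 for all genes. The 6 were Grb10, Ptpn6, Cbl, Plcg2, Gab2 and Ptpn11. Grb10 and Ptpn6 were below 5 CPM in the Kit-low sum, so the filter left them no way to be called lower. Plcg2, a phospholipase C, had sums of 201.2 and 119.04 CPM, and Gab2, a docking protein for PI3K and SHP2, had 59.3 and 35.7. Cbl, the ubiquitin ligase that turns over active KIT, had 16.7 and 9.44. Ptpn11, the phosphatase SHP2, had 43.6 and 26.7 CPM.

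The 2 with the highest ratios rested on few cells. Grb10, an adaptor that binds insulin receptors and KIT, had medians of 0.159 and 0 CPM, and 56.1% of its Kit-high counts came from 1 cell. Ptpn6, the phosphatase SHP1, had medians of 1.44 and 0.588 CPM, and 30.1% of its Kit-high counts came from 1 cell. Grb2, the adaptor that links receptors to RAS, was at 21.6 and 19.4 CPM, and the KIT-binding kinases Fyn and Lyn were at 35.2 against 42.9 and 3.91 against 5.19. Within length classes the list had 1 gene higher and 0 lower of 22, with a median of 0.03.

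In the PI3K and AKT pathway, 8 of 19 measured genes were higher and 2 lower, beside 11.3% and 11.4% of all genes, with a median log2 ratio of 0.12. Pik3cd, the delta catalytic subunit of PI3K, ran from 0.245 over a median of 129.7 to 388 CPM in the Kit-high group and from 0.592 over 59.7 to 394 in the Kit-low group. Its sums, 151.3 and 76.9 CPM, differed 1.97-fold while the ranges overlapped almost wholly. The alpha catalytic subunit Pik3ca went the opposite way, with sums of 8.97 and 17.7 CPM, so the PI3K subunits did not move together.

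Inppl1, the lipid phosphatase SHIP2, had medians of 62.7 and 17.3 CPM and sums of 65.7 and 26.6, a 2.47-fold difference. Inpp5d, the related SHIP1, had sums of 52.3 and 26.4 CPM. The regulatory subunits Pik3r1, Pik3r2 and Pik3r3, with Akt2 and the AKT-activating kinase Pdpk1, were the other higher genes, from 35.2 CPM against 20.2 for Pik3r1 to 209.8 against 124.2 for Akt2.

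Foxo3, the factor that this pathway switches off in the oocyte, had the same mRNA level at both ends. Its Kit-high cells ran from 46.6 to 361 CPM with a median of 144.9, and its Kit-low cells from 44.4 to 333 with a median of 147.8. The sums were 149.8 and 150.2 CPM, a ratio of 0.997, and in the middle groups 147.2 and 147.7. Akt1 was at 31.2 and 28.1 CPM, and Cdkn1b, the cell cycle inhibitor p27, at 22.3 and 28.6. Within length classes the pathway list had 0 genes higher and 1 lower, with Pik3cd at 0.51 and Foxo3 at 0.00.

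Of 21 measured genes of the TSC complex and mTOR, downstream of AKT, 3 were higher and 1 lower, near the 11.3% and 11.4% of all genes. Mtor, the growth kinase, had medians of 116.01 and 64.2 CPM and sums of 118.7 and 66.98, a 1.77-fold difference. Tsc2 ran from 100.8 to 449 CPM in the Kit-high group (median 283.96) and from 33.3 to 469 in the Kit-low group (median 141.9), with sums of 282.5 and 169.3. Tsc1 had sums of 93.1 and 59.4 CPM. Tsc1 and Tsc2 are subunits of the complex that restrains mTOR. Stk11, the kinase LKB1, was the lower gene, at 12.3 against 19.4. Rps6, the ribosomal protein that mTOR signalling modifies, was at 528 and 539 CPM. The list's median was -0.04, and positive, at 0.12 and 0.16, with TMM and median-of-ratios scaling. Within length classes, 0 genes of the list were called in either direction.

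Of 17 measured RAS and MAP kinase genes, 1 was higher and 2 lower, beside 11.3% and 11.4% of all genes. Their median of -0.05 was also that of all genes, and it was 0.11 with TMM and 0.15 with median-of-ratios scaling. Nras, a RAS GTPase, was one of the lower genes, with sums of 80.8 and 130.9 CPM. In the JAK and STAT list, Tyk2 was higher at 91.01 against 44.4 CPM, the 1 called gene of 4. That is too few genes to set beside the 11.3% of all genes. The log2 ratio of Tyk2 was 0.10 within length classes, and Stat3 was at 758 against 523, 1.45-fold.

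Of 8 measured receptor tyrosine kinases other than KIT, Ptk7, Erbb3 and Fgfr1 were higher and Erbb4 lower. Erbb3 was below 5 CPM in the Kit-low sum and Erbb4 in the Kit-high sum, so neither could have been called the opposite way. The 8 receptors are few genes to set beside the 11.3% and 11.4% of all genes. The gene for the ligand, Kitl, is one that granulosa cells make, and it was near 0 in most oocytes, with medians of 0.270 and 0.755 CPM. Its sums were 1.76 and 6.21 CPM, but 58.2% of the Kit-low counts came from replicate 66, and without that library the log2 ratio went from -1.57 to -0.48. Within length classes 0 of the 8 receptors were called, and Ptk7 went from 1.71 to 0.30, Erbb3 from 0.66 to -0.07 and Erbb4 from -0.63 to 0.11. Of 5 measured neighbours of Kit on chromosome 5, 0 were higher and 1 was lower, too few genes to set apart from the shares of all genes.

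**Figure D4:**
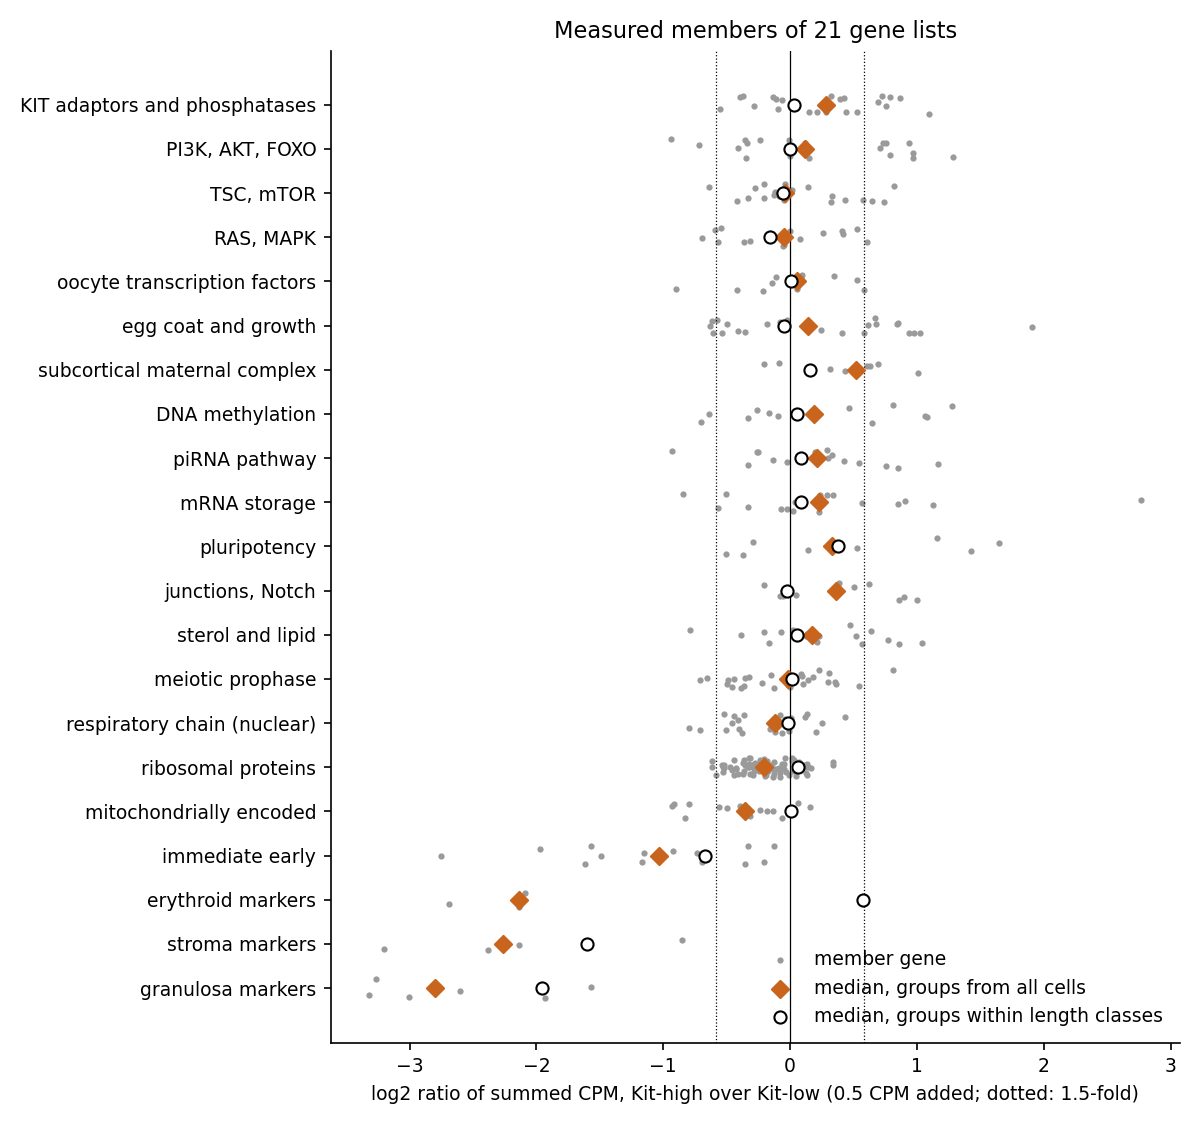
Log2 ratio of the Kit-high over the Kit-low group for each measured member of 21 gene lists as grey points, with list medians as diamonds and, as open circles, the medians from groups taken within classes of transcript length. Diamonds of the granulosa, stroma, red blood cell and immediate early lists lie lowest, and most open circles lie nearer 0 than the diamonds.

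Transcription factors that set up the oocyte programme were close between groups. Of 12 measured, 0 were higher and 1 was lower, beside 11.3% and 11.4% of all genes. Nobox was at 962 and 899 CPM, Sohlh1 at 897 and 843, and Lhx8 at 599 and 470, all within 1.5-fold. Figla, which drives egg coat genes, was at 370 and 495 CPM. Sub1, a general transcription coactivator, was the lower one, with medians of 710 and 1368 CPM and ranges of 459 to 1058 and 443 to 2955.

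Of 25 measured egg coat and oocyte growth genes, 9 were higher and 3 lower, beside 11.3% and 11.4% of all genes, with a median of 0.14. Npm2, a histone chaperone stored in the egg, had sums of 211.7 and 103.6 CPM. Zp3, an egg coat protein, ran from 36.1 to 1970 CPM in Kit-high cells (median 717) and from 35.1 to 2036 in Kit-low cells (median 379), so the groups covered nearly the same range. Zp2 had medians of 1111 and 653 CPM and sums of 1188 and 776. Zp1 had sums of 567 and 378 CPM, just under the mark once 0.5 CPM was added to both. Of the secreted factors that oocytes send to granulosa cells, Bmp15 was 1.62-fold higher, at 19.23 against 11.9 CPM, and Gdf9 was 1.33-fold higher, at 449 against 337. Within length classes 3 genes of the list were higher and 0 lower, and Bmp15 turned to -0.05.

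Members of the subcortical maternal complex, the protein assembly that eggs store for the early embryo, had a median log2 ratio of 0.52, with 4 of 8 higher, beside 11.3% of all genes, and 0 lower. Padi6 ran from 96.5 over a median of 3626 to 12293 CPM in the Kit-high group and from 216.9 over 2254 to 6096 in the Kit-low group, with sums of 4051 and 2502. Zbed3 had sums of 944 and 608 CPM, Nlrp14 960 and 631, and Khdc3 16.9 and 8.17. Nlrp5 was at 1836 against 1361 CPM and Ooep at 365 against 420, neither past the mark. Without the cells that held other cell type markers, 2 of 8 were higher, and within length classes 1.

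DNA methylation genes differed in both directions. Uhrf1, which brings the maintenance methyltransferase to replicated DNA, ran from 141.7 to 2388 CPM in Kit-high cells (median 752) and from 99.4 to 884 in Kit-low cells (median 323), 2.43-fold in the sums. Dnmt1, that methyltransferase, had medians of 269.3 and 139.5 CPM and sums of 304.9 and 143.9. Dnmt3a, Dnmt3b and the oxidase Tet3 were the other higher genes. Dppa3, which keeps UHRF1 out of the oocyte nucleus, was 1.63-fold lower: 1111 to 2891 CPM in Kit-high cells (median 1718) and 1126 to 5556 in Kit-low cells (median 2783). Kdm1a was lower as well, so 5 of 12 were higher and 2 lower, beside 11.3% and 11.4% of all genes. Both of these lay within 1.5-fold with TMM and median-of-ratios scaling, where 0 of the 12 were called lower. Within length classes the log2 ratio was 0.60 for Dnmt1 and 0.24 for Uhrf1.

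In the piRNA pathway, which silences transposons in germ cells, 3 of 17 genes were higher and 1 lower, beside 11.3% and 11.4% of all genes. Piwil2, a PIWI protein, ran from 290.99 to 1086 CPM in Kit-high cells (median 614) and from 26.1 to 939 in Kit-low cells (median 320). Tdrd9, a helicase of the pathway, had sums of 401 and 221.5 CPM. Gtsf1, a small zinc finger partner of PIWI proteins, was 1.91-fold lower, with medians of 524 and 978 CPM. Ddx4 and Mael were at 322 against 261.6 and 500 against 372 CPM, within 1.5-fold. Within length classes the log2 ratios of Piwil2, Tdrd9 and Gtsf1 were 0.38, 0.27 and -0.30, none of them past 1.5-fold.

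Germ cell pluripotency genes were higher in 3 of 8 cases, beside 11.3% of all genes: Lin28a, Sall4 and Pou5f1. Sall4, a zinc finger factor of germ cells, had sums of 38.98 and 14.2 CPM, 2.74-fold, and Pou5f1, the factor OCT4, had 30.2 and 13.2. Within length classes 4 of the 8 were higher and 1 lower. Of the genes for stored mRNA, Eif4e1b, an oocyte cap-binding protein, was at 7.20 against 0.630 CPM. Being measured through the Kit-high sum alone, it could not have been called lower. Its log2 ratio was 2.77, within length classes 2.82, and 1.12 with 5 CPM added to both sums. Patl2 was at 18.9 against 8.38 CPM, and Ybx2, which packages stored mRNA, was lower at 104.01 against 186.9.

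Meiotic prophase genes had 1 of 27 higher and 2 lower, beside 11.3% and 11.4% of all genes. Their median was -0.02, and it was 0.15 with TMM and 0.18 with median-of-ratios scaling. Sycp3, of the synaptonemal complex, was at 296.2 and 415 CPM. Cell adhesion and Notch genes had 4 of 13 higher, beside 11.3% of all genes, and 0 lower. Within length classes 0 were higher and 1 lower. Cdh3 was at 17.4 and 8.49 CPM, Cdh1, the E-cadherin that joins oocytes to granulosa cells, at 63.01 and 34.5, and Notch2 at 19.4 and 10.1.

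The genes most opposed to Kit had short transcripts. Over P2.5 cells, the lowest rank correlations with Kit were -0.73 for Pfdn6, a prefoldin subunit, -0.69 for Cox5b and Dctpp1, -0.68 for Ndufa2 and -0.67 for Polr2l, a subunit shared by RNA polymerases. Cox5b, a subunit of cytochrome c oxidase, ran from 193.4 to 631 CPM in Kit-high cells (median 399) and from 407 to 1086 in Kit-low cells (median 673), and 0% of Kit-high cells lay above the Kit-low median. Pfdn6 had ranges of 47.9 to 187.5 and 89.8 to 431 CPM with medians of 108.1 and 226.5. The groups overlapped for both, over Kit-low cells that lay below the Kit-low median. Within length classes the log2 ratio of Cox5b was -0.20.

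The highest rank correlations were 0.67 for Pelp1, a nuclear receptor coregulator, 0.66 for the deubiquitinase Usp19, 0.65 for the ubiquitin-activating enzyme Uba1 and 0.63 for Ap2a1, followed by Piwil2, Eif4g2, Ipo5, Sec61a1, Espl1 and Esrp1. Over the 7184 genes compared, the middle 50% of correlations lay between -0.125 and 0.200. Uba1 ran from 335 over a median of 636 to 920 CPM in the Kit-high group and from 69.2 over 260.2 to 660 in the Kit-low group. The 10 genes had transcripts of 3172 to 7995 bases and the 5 opposed ones of 572 to 1650. These correlations use the cells that the Kit ranking ordered and are a description.

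Ribosomal protein genes had a median log2 ratio of -0.20, with 0 of 82 higher and 2 lower, beside 11.3% and 11.4% of all genes. Their medians were -0.04 with TMM and -0.00 with median-of-ratios scaling. Genes of nuclear-coded respiration had a median of -0.12, and of 0.04 and 0.08 with those scalings, with 0 of 23 higher and 2 lower. Of 14 measured mitochondrial-genome genes, 4 were lower and 0 higher, beside 11.4% and 11.3% of all genes. mt-Cytb, of respiratory complex III, had sums of 3923 and 7480 CPM, but mt-Nd5, of complex I, had 1805 and 1732 and mt-Rnr2, the large ribosomal RNA, 10639 and 9533. A cell's share of mitochondrial counts had medians of 2.65% in the Kit-high and 3.40% in the Kit-low group. Within length classes neither the ribosomal nor the mitochondrial list had a called gene, with medians of 0.06 and 0.01.

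Platr14, a pluripotency-associated noncoding transcript, had Kit-high cells of 0 to 159.96 CPM (median 25.3) and Kit-low cells of 0.179 to 224.4 (median 72.7), 2.62-fold lower in the sums. Pou4f1, a POU-domain transcription factor, had sums of 17.7 and 40.4 CPM. Within length classes their log2 ratios were -0.65 and -0.61, both still past 1.5-fold.

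The 12 genes with the lowest ratios included Krt18, Col3a1 and Hba-a1, each in a marker list of another cell type, while Gstm1, Vim, Cpe, Sparc and the others were in none of those lists. Of the 12, replicate 66 held the largest count of any Kit-low cell for 11, the exception being Hba-a1. Krt18, a keratin of epithelial and granulosa cells, had sums of 1.75 and 21.9 CPM, and 84.7% of its Kit-low counts came from that library. Without it the log2 ratio of Krt18 went from -3.32 to -0.80, that of Krt8 from -3.27 to -0.60 and that of Gstm1 from -3.45 to -2.07. Col3a1, a stromal collagen, went from -3.20 to -1.77, Cpe from -3.16 to -1.06 and Vim from -3.01 to -0.91. All 12 were still at least 1.5-fold lower. Without every cell that held other cell type markers 11 of the 12 were, with Gstm1 at -1.99, Cpe at -1.09, Sparc at -0.88 and Vim at -0.50. Hba-a1, the alpha globin of red blood cells, had sums of 4.21 and 29.8 CPM, and its log2 ratio turned from -2.69 to 0.57 within length classes.

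By list, 6 of 6 measured granulosa cell markers, 4 of 4 stromal and 3 of 3 red blood cell markers were lower in the Kit-high group. Of all genes 11.4% were. A marker below 5 CPM in the Kit-high sum, such as Krt18, Kitl or Hba-a1, was measured through its Kit-low sum alone. The filter left such a marker no way to be called higher, and these counts are a description. The summed level of all 16 granulosa markers per cell had medians of 6.64 CPM in the Kit-high (range 0 to 145.6) and 8.34 in the Kit-low group (0 to 3072). Without replicate 66 no granulosa marker was measured, and 3 of 4 stromal markers were lower. Without every cell that held other cell type markers, 1 of 2 stromal and 1 of 2 red blood cell markers were lower, and over all genes 1179 were higher and 1041 lower. The part of other cells' RNA in the remaining differences was not tested.

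Immediate early genes, which dissociation of tissue can switch on, were lower in 10 of 14 cases and higher in 0, with a median of -1.04. Of all genes 11.4% were lower and 11.3% higher. Fos had sums of 36.5 and 82.5 CPM, Jun 7.55 and 24.2, and Egr1 193.6 and 247.3. Dusp1, a phosphatase of the response, had 0.884 and 8.82, so it was measured through the Kit-low sum alone and could not have been called higher. Without replicate 66, 7 of 11 were lower, beside 10.9% of all genes, with a median of -0.63. Without the cells that held other cell type markers, 2 of 11 were higher and 4 lower, beside 10.8% and 9.57% of all genes. The list moved with those markers, and their part in it was not tested.

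**Figure D5:**
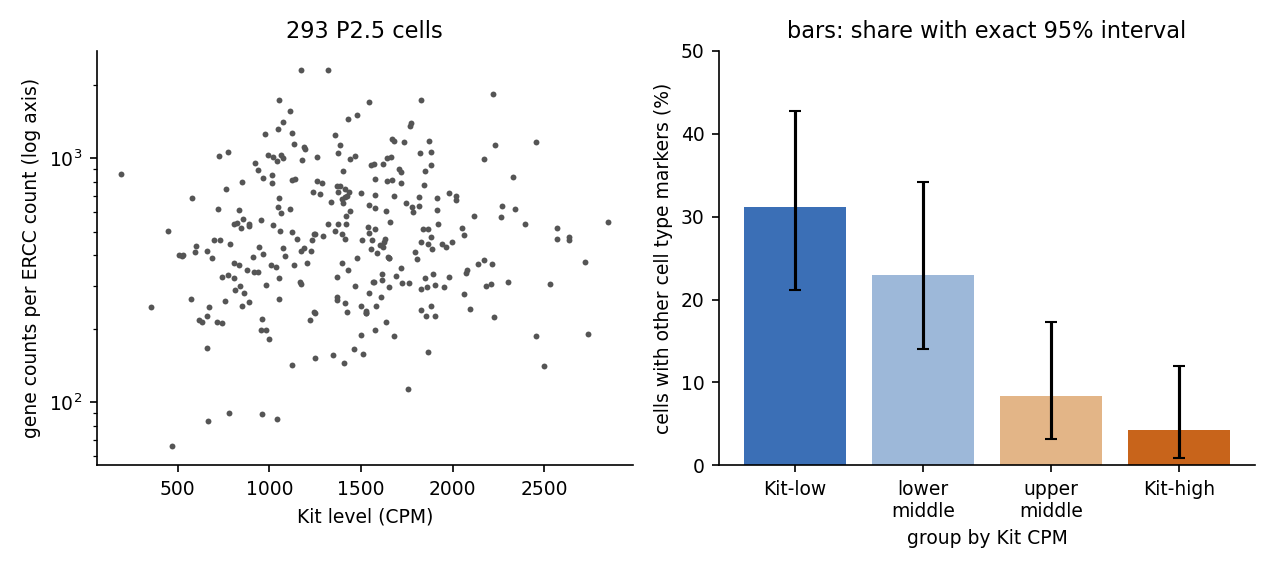
Left, gene counts per ERCC count of each P2.5 cell on a log axis against its Kit level in CPM; right, the share of cells in each Kit group with at least 10 of 100000 counts from markers of other cell types, with exact 95% intervals. The cloud shows no trend with Kit, with a rank correlation of 0.068, and the shares go from 31.2% in the Kit-low to 4.29% in the Kit-high group.

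Gene counts per ERCC count, a measure of the RNA of a cell relative to a spike-in, did not follow Kit in order. The medians were 398 in the Kit-low group, 560 in the lower middle, 464 in the upper middle and 458 in the Kit-high group. Kit-high cells ran from 140.7 to 1831 and Kit-low cells from 65.8 to 1324, with a ratio of medians of 1.15, and 58.6% of Kit-high cells lay above the Kit-low median. Over P2.5 cells the rank correlation with Kit CPM was 0.068. Kit was higher also per spike-in, with a 3.03-fold ratio of medians. At P6.5 the high Kit libraries had a median of 2727 and the low ones of 4140, the opposite direction.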

How the data were processed

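Single-cell Smart-seq2 libraries were made from polyadenylated RNA. The authors deposited whole-number counts of reads per gene, ERCC spike-ins included, and FPKM values per gene. STAR 2.7.10b, HTSeq 0.13.5 and RSEM 1.3.3 are named for the mouse build mm10, per the submitters' processing notes. They do not tie a tool to a table. Counts were used as deposited, and 0 columns were left without a library in the labels.

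Libraries were ranked by Kit CPM and divided at the 25% and 75% points. The 317 P2.5 libraries were taken as 293 cells, with each of the 24 close pairs counting once. A group's counts were added up over its cells and scaled to 1000000, and log2 ratios and calls have 0.5 CPM added to both sides, while folds are of the sums as they stand. Genes were called at 1.5-fold. With 1 sample per stage no test was run. Intervals cover counting error only: of reads for ratios (Poisson), and of cells for shares (exact binomial, Clopper-Pearson). The reads carry no molecular identifiers, so they are not independent molecules. The ratio script was tested on simulated data with 200 changed genes. No doublet caller was run, since cells were picked by hand. Named genes are the 12 highest and 12 lowest ratios of at least 20 CPM, up to 2 list members at either end, the 10 highest and 5 lowest rank correlations with Kit, and a set of pathway and oocyte genes. Other list members were named after their values were seen, and some items withheld for evaluation are not reported here. Members and the 38 gene lists were chosen with earlier results of these data known. Transcript lengths and GC content come from GENCODE annotation of the same build, and promoters from RefSeq GRCm38.p6, which held 132 of the 175 named genes. Python 3.11.15, numpy 2.4.6, pandas 2.3.3, scipy 1.17.1 and, for TMM factors, edgeR 4.0.16 were used.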

Additional observations from a re-analysis of the deposited data

How the results depend on the processing

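No paired analysis was possible because the results come from no test and replicate numbers only name libraries. Higher and lower genes, 11.3% and 11.4% of those measured, were 3.92% and 6.13% when cells were ranked by Kit per ERCC count, 7.29% and 6.93% with wider groups of 33% of the libraries, 17% and 19.9% with narrower groups of 12.5%, 17.8% and 6.23% with TMM scaling, 19.7% and 5.37% with median-of-ratios scaling, and 18.1% and 5.97% per ERCC count. They were 2.95% and 2.4% at 2-fold. Without a filter on low counts 5.72% were higher and 9.74% lower, and with 5 CPM added 8.16% were higher and 6.33% lower. Classes of GC content gave 4.86% and 6.01% and classes of transcript length 1.85% and 3.9%, both chosen after seeing the data, as was leaving out replicate 66. Within GC classes 35.5% of the higher and 40.2% of the lower genes of the main comparison were still called. As numbers of genes, the settings without a filter gave 2215 higher and 3769 lower, and a filter of 1 CPM and 3 cells gave 2550 lower. The ratio of gene counts per ERCC count, 1.15, was 3.98 when ranked by Kit per ERCC count, where the ERCC count is in both measures. It was 1.18 with pairs summed before ranking, 1.17 ranked by FPKM, 1.12 with the wider and 1.18 with the narrower groups, 1.05 within 3 classes of this measure, 0.975 within 3 classes of depth, 1.14 with all columns separate, 1.05 without cells holding other cell type markers, 1.16 without replicate 66, 0.858 within length classes and 1.06 within GC classes. Ranked by Kit per ERCC count, 22.2% of the higher and 37.1% of the lower genes of the main comparison were still called. So were 8 of the 12 genes with the highest ratios and all 12 with the lowest. In that ranking the log2 ratio turned to -0.014 for Elobl, 0.0055 for Erbb4, 0.13 for Oas1d, 0.11 for Ddit3 and -0.94 for Piwil1. Without cells holding other cell type markers it turned to 0.12 for Krt8, 0.22 for Inha and 0.067 for Kitl. Within length classes it turned to 0.57 for Hba-a1 and the red blood cell list, 0.32 for Hbb-bs, 0.61 for Hba-a2, 0.11 for Erbb4, -0.073 for Erbb3, -0.034 for Casp9 and -0.052 for Bmp15, and within GC classes to -0.21 for Erbb3. The endothelial list's median turned to 0.0045 with the lower filter. For these turns the cause was not tested.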

Other observations

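Genes of cholesterol and lipid synthesis were higher in 4 of 18 cases and lower in 1, beside 11.3% and 11.4% of all genes. Within length classes 0 were called. Srebf1, the transcription factor of lipid synthesis, had sums of 73.5 CPM in the Kit-high and 35.4 in the Kit-low group. Of 14 glycolysis genes Ldha alone was called, beside 22.7% of all genes called in either direction. Ldhb, the other lactate dehydrogenase subunit, was at 2591 and 3656 CPM. Among 18 genes of oocyte quality control, 2 were higher and 3 lower, near the 11.3% and 11.4% of all genes. Atr, a DNA damage kinase, was at 135.3 and 89.4 CPM, and Trp63, the p53 relative that removes damaged oocytes, at 282.2 and 220.3. Of 22 cell cycle genes 0 were higher and 2 lower, and of 18 autophagy genes 1 was higher and 1 lower, beside the same 11.3% and 11.4%.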
